A study of Homo sapiens with 8 samples.

Results

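The RAB, VPS and SNX genes, which run vesicle traffic and endosomal sorting, were the 115 of 12186 genes whose symbol in the annotated H3K9ac peak lists begins with RAB, VPS or SNX followed by a number. They were 43 RAB GTPases, 8 RAB-named regulators and effectors, 31 VPS genes, 27 SNX genes and 6 loci that code for no protein of these families on their own. The last 6 were RAB30-AS1, RAB4B-EGLN2, RAB9BP1, SNX29P2, VPS13A-AS1 and VPS9D1-AS1. Their H3K9ac peaks numbered 188 in the stromal list and 68 in the astromal list. To these were added the H3K27ac peaks whose centre lay within 2 kb of the centre of one of the H3K9ac peaks of either list, 123 stromal and 124 astromal.

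A gene entered only if it was the gene nearest to an H3K9ac peak. RefSeq (assembly GRCh38.p14) names 139 protein-coding genes by the same pattern, of which 109 were members and 4 were listed under older symbols that the pattern misses. The other 26 were nearest to no H3K9ac peak of either list. Among them were 22 RAB genes, including RAB25 and RAB38, whose products act in epithelial recycling and in lysosome-related organelles, and RAB27A, a RAB of exosome and granule secretion. The others were VPS13A, whose antisense locus VPS13A-AS1 was listed, and SNX20, SNX22 and SNX31. What follows therefore concerns family genes that carried H3K9ac in at least 1 condition.

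The libraries came from MIA PaCa-2, an established human line of pancreatic ductal adenocarcinoma cells, grown as spheroids in a hyaluronan hydrogel cross-linked with PEGDA. In stromal cultures the gel also held Gelin-S, the kit's collagen component, and the low-serum medium had been conditioned by immortalised myofibroblasts grown out of resected human pancreatic tumours. In astromal cultures water took the place of Gelin-S and the medium was plain low-serum DMEM. The comparison asks how these cues bear on histone acetylation in the cancer cells, and since the gel component and the conditioned medium came together, their parts cannot be told apart. Each combination of mark and condition was 1 library with its own peak list, so no difference between conditions has a replicate check and none is given a p-value.

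RAB proteins are small GTPases that switch between a GTP-bound form on membranes and a GDP-bound form in the cytosol, and each marks a set of compartments to which it recruits tethers, motors and sorting machinery. Products of VPS genes, found in yeast through mutants that secrete vacuolar enzymes, build the retromer, the ESCRT machinery that makes multivesicular bodies, the HOPS, CORVET and GARP tethers and the VPS13 lipid transfer bridges. Sorting nexins bind phosphoinositides through a PX domain, and those with a BAR domain bend the membrane into the tubules in which retromer cargo leaves the endosome. Acetylation of histone H3 at lysine 9 marks active promoters, and that at lysine 27 marks active enhancers as well. The naming pattern also takes in VPS72, whose human product is a subunit of chromatin remodelling complexes and not a sorting protein.

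Depth differed between libraries. The stromal H3K9ac library was estimated at 7569791 tags and had 20326 peaks of 210 bp, against 3923202 tags and 7141 peaks of 200 bp in the astromal library. The H3K27ac libraries held 17190695 tags and 15093 peaks of 174 bp (stromal) and 13453902 tags and 14489 peaks of 196 bp (astromal). Levels are normalised tags in a peak per 10000000 tags, and the median H3K9ac peak held 20 tags in the stromal and 9 in the astromal list, while 5% of the peaks lay at or below 13.2 (stromal) and 17.8 (astromal) normalised tags. All peaks of a list have the same width, so levels can be set side by side between genes. Peaks held 5.81% of stromal and 1.76% of astromal H3K9ac tags, and 1.97% and 2.17% of the H3K27ac tags. Of 8 epithelial markers 4 were nearest to an H3K9ac peak (KRT8, KRT18, KRT19 and CLDN4, but not EPCAM or CDH1), with a summed level of 89.8 in the stromal and 43.3 in the astromal list, and no acinar (0 of 6) or leukocyte (0 of 4) marker was. Of 4 mesenchymal markers 1 had H3K9ac, VIM, at 51.5 in the stromal list only, while ZEB1, CDH2 and SNAI2 had none in either. Of 9 myofibroblast markers 3 had H3K9ac, COL1A2, COL1A1 and ACTA2, all in the stromal list only (summed level 62.1 stromal, 0 astromal), while COL3A1, POSTN, PDGFRB, DCN, LUM and FAP had none in either. Of all genes 52.2% were in the stromal list only, and of those under 20 normalised tags, as COL1A1 (17.2) and ACTA2 (14.5) were, 92.5%. H3K27ac lay near COL1A2 in both conditions (26.2 stromal, 24.5 astromal) and near COL1A1 and ACTA2 in neither. It lay near VIM in stromal cultures only (20.4) and near CLDN4 in astromal cultures only (18.6). The part of these markers in the results was not tested, and in bulk chromatin fewer cells with a mark and less of it per cell cannot be told apart.

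H3K9ac was found at all 115 members in the stromal list and at 57 of them in the astromal list. The 58 others had a peak in the stromal list only, and no member was listed in the astromal condition alone. Over all 12186 genes, 46.8% had a peak in both lists, 52.2% were listed in stromal cultures alone and 0.935% in astromal cultures alone, so the members' split of 49.6% and 50.4% lay near that of genes at large. The share listed in the stromal condition only was 19 of 43 among RAB GTPases, 12 of 27 among SNX genes, 17 of 31 among VPS genes and 6 of 8 among RAB-named regulators. The 95% Clopper-Pearson intervals of these shares, which here and below cover counting error only, overlapped one another and held the 52.2% of all genes. They ran from 29.1 to 60.1% for RAB GTPases, from 25.5 to 64.7% for SNX genes, from 36.0 to 72.7% for VPS genes and from 34.9 to 96.8% for the regulators.

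**Figure D1:**
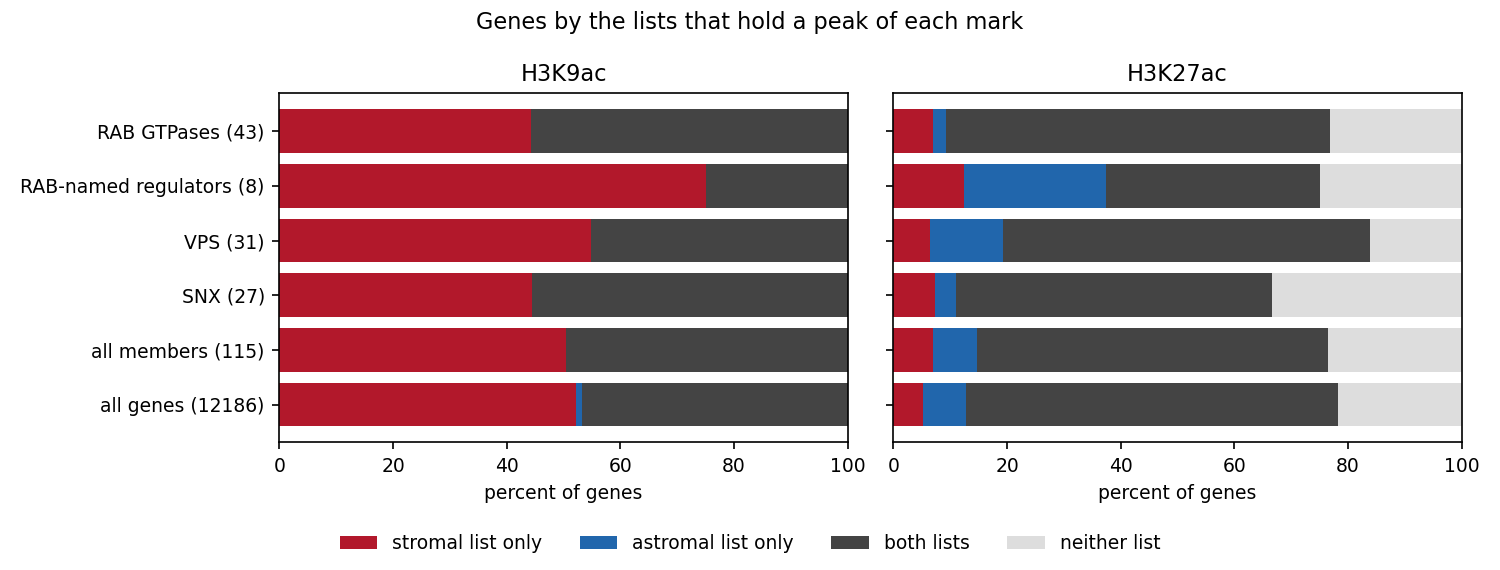
Bars give the percent of genes with a peak in the stromal list only, the astromal list only, both lists or neither list, for H3K9ac (left) and H3K27ac (right), with the number of genes in brackets. In H3K9ac no member bar has an astromal-only segment, and in H3K27ac 27 of 115 members lie in neither list.

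Whether a member also appeared in the astromal list followed its stromal level. Among members whose strongest stromal H3K9ac peak was under 20 normalised tags, 15 of 18 were listed in the stromal condition only, and in the bins from 20 to 30 and from 30 to 40 this held for 25 of 36 and 9 of 26. From 40 normalised tags up it held for 9 of 35 members, or 25.7% (interval 12.5 to 43.3%), against 15.4% of all genes at that level (464 of 3006). In the lower bins, from the weakest up, the members' shares of 83.3%, 69.4% and 34.6% stood beside 92.5%, 68.1% and 41.5% of all genes. The astromal list was the shallower of the pair, so a gene missing from it was not detected at that depth, which does not show that the mark was absent.

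The strongest H3K9ac peaks belonged to genes of different branches of the pathway. SNX13, an ER-anchored sorting nexin at membrane contact sites, had 83.2 normalised tags in the stromal and 38.2 in the astromal library. RAB2A, a RAB of ER to Golgi traffic, had 79.3 and 51.0 in the same order and was the highest member of the astromal list. SNX6, a BAR-domain nexin that works with retromer, had 62.1 in stromal and 28.0 in astromal cultures. All of them were higher in the stromal library, as were 54 of the 57 members with peaks in both, against 92.9% of all such genes before centring. RAB8A, a RAB of exocytosis and of the primary cilium, had 60.8 in the stromal and 22.9 in the astromal library. VPS52, a subunit of the GARP and EARP tethers, had 59.4 in the stromal and 35.7 in the astromal library. SNX13 stood at percentile 99.7 of all genes in the stromal list, and SNX6 and RAB8A at percentiles 97.2 and 96.7, so a few members were among the most strongly marked genes while the members' median of 31.7 was close to the 30.4 of all genes.

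The 8 strongest members of the stromal list that were missing from the astromal list came from several steps of the pathway. VPS41, a HOPS subunit that brings vesicles to late endosomes and lysosomes, had 47.6 normalised tags (36 tags) in the stromal library and no astromal peak. VPS16, a core subunit of HOPS and CORVET, had 44.9, and RAB29, a RAB of the Golgi and lysosomes, had 43.6, with no astromal peak at either. RAB5A, which drives fusion of early endosomes, RAB35, a RAB of recycling and cytokinesis, RAB11FIP2, an effector of RAB11, VPS45, a partner of endosomal SNAREs, and VPS8, a CORVET subunit, each had 42.3 in the stromal library and none in the astromal one. The marks differed at these genes. H3K27ac lay near RAB5A, RAB35, RAB11FIP2 and VPS45 in both conditions, near VPS41 and RAB29 in stromal cultures only and near VPS16 and VPS8 in astromal cultures only.

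The sequences just before the annotated starts of 4 genes are shown. SNX13 has the strongest H3K9ac peak among members, VPS41 the strongest that was listed in stromal cultures only, and SNX6 and VPS26B are the members called in H3K27ac below. Whether these sequences bear on the acetylation was not tested. No member was listed for H3K9ac in astromal cultures only, so none of that kind is shown. Each line holds the 250 bases before the start from RefSeq (GRCh38.p14), 5′ to 3′ on the gene's strand. Capitals mark matches on either strand to CACGTG (E-box), CCGGAAG (ETS core), GGGCGG (GC box), CCAAT or TATAAA, and neighbouring GC boxes can overlap. SNX13 lies at chr7:17940495-17940744 on the minus strand, VPS41 at chr7:38909192-38909441 on the minus strand, SNX6 at chr14:34630149-34630398 on the minus strand and VPS26B at chr11:134224421-134224670 on the plus strand.
SNX13: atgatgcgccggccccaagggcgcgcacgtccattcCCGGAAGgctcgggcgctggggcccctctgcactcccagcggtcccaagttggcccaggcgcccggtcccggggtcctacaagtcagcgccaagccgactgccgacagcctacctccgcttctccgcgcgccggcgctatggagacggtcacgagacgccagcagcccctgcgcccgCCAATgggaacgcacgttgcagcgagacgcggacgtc
VPS41: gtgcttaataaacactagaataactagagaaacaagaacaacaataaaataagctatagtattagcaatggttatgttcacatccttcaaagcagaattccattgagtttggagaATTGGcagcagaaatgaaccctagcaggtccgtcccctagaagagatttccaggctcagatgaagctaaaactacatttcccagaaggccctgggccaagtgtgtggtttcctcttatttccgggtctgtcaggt
SNX6: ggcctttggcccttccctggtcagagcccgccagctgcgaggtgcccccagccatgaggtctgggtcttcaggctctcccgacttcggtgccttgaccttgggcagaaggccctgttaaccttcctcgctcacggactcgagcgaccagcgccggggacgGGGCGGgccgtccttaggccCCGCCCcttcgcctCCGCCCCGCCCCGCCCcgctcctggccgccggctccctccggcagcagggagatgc
VPS26B: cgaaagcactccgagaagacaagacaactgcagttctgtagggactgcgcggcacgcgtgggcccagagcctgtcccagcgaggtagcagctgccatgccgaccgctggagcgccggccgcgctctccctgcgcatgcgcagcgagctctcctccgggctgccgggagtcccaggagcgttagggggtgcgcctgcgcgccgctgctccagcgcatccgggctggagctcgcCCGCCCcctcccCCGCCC

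The sequences differ in composition. The VPS41 stretch held 41.6% G and C, against 71.6% in SNX13 and 72.4% in both SNX6 and VPS26B. SNX6 had 5 GC boxes and VPS26B 2, while neither SNX13 nor VPS41 had any. SNX13 had 1 ETS core and 1 CCAAT box and VPS41 1 CCAAT box. A promoter entry of 300 bases, 250 before and 50 after the start, was found for 87 members. GC boxes lay in 70 of these (80.5%), against 58.5% of 15843 coding promoters and 72.0% of the 8904 whose gene had H3K9ac. ETS cores lay in 25.3% of member promoters, against 14.2% of all and 20.7% of those with H3K9ac, and E-boxes in 13.8%, against 8.88% and 10.5%. CCAAT was found in 26.4% of member promoters, against 36.4% of all and 36.8% of those with H3K9ac, and TATAAA in 1 of 87 (1.15%), against 9.63% and 5.26%. The median G and C content was 68.3% in members, 62.7% in all and 65.7% in those with H3K9ac. These are matches of letters, not bound sites. The motif shares have no intervals and were not tested, so they do not set the members' promoters apart.

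By compartment, the RABs of late endosomes and lysosomes had the highest median H3K9ac among RAB groups in the stromal list, 47.6 over 4 genes, while 3 of them had a median of 17.8 in the astromal list. RAB7A, which directs late endosomes to fuse with lysosomes, had 54.2 in stromal and 33.1 in astromal cultures. RAB32, a RAB of lysosome-related organelles named here after its values were seen, had 51.5 in stromal and 15.3 in astromal cultures, where it rested on 6 tags. Among 12 ER and Golgi RABs 8 had peaks in both lists, RAB1A with 35.7 in stromal and 20.4 in astromal cultures, and RAB6A, a RAB of retrograde Golgi traffic, with 42.3 in stromal and 28.0 in astromal cultures. Among 7 early endosome RABs 4 had peaks in both lists, RAB5B at 42.3 in stromal and 33.1 in astromal cultures. Recycling RABs were the weakest of the RAB groups in the stromal list, with a median of 24.5 over 8 genes. These medians leave out RABs nearest to no H3K9ac peak, so the order of groups holds among listed genes only. Left out were RAB7B, RAB9B, RAB38 and RAB42 of late endosomes and lysosomes, RAB25 of recycling and genes of other groups. RAB11A, the main RAB of recycling endosomes, had 37.0 in stromal and 33.1 in astromal cultures, and RAB4A had 23.8 in the stromal list alone. The groups overlapped throughout, as the plot of levels by role shows.

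**Figure D2:**
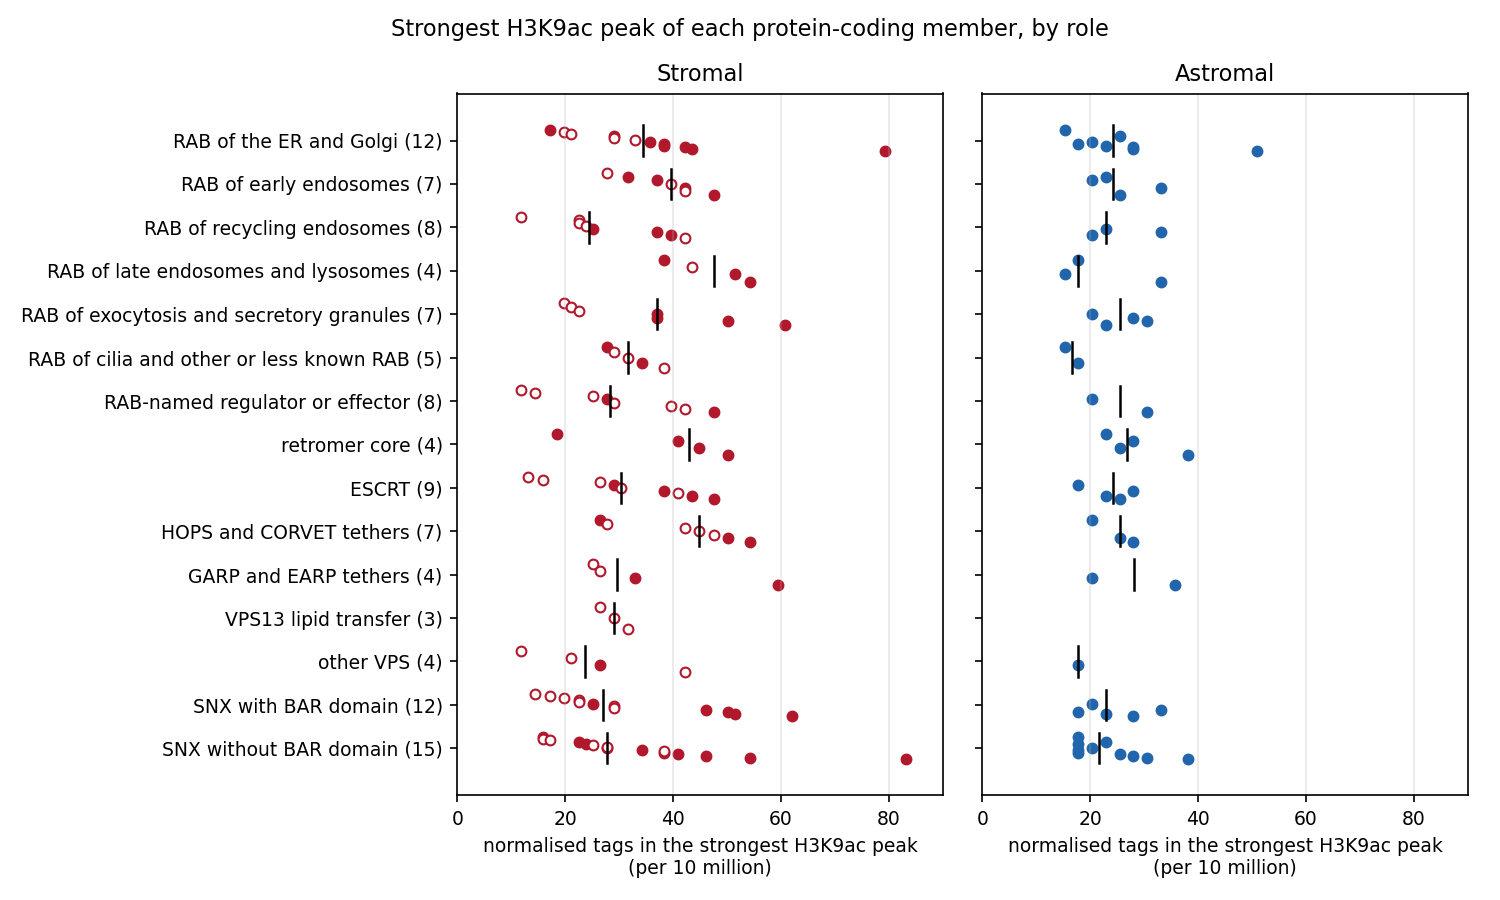
Each point is the strongest H3K9ac peak of a protein-coding member in normalised tags, in the stromal (left) and astromal (right) library, with genes grouped by role and the number of genes in brackets. Filled points are members with peaks in both lists, open points those of the stromal list only, and black bars the median of the listed genes. SNX13 (83.2) and RAB2A (79.3) stand apart at the right of the stromal panel.

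Counts of subunits listed for H3K9ac in both conditions, where 46.8% of all genes were, are small for each complex. The intervals of the share listed in stromal cultures alone overlapped, from 0 to 60.2% for the retromer core, from 18.4 to 90.1% for HOPS and CORVET and from 29.2 to 100% for VPS13 genes. All 4 retromer core genes had H3K9ac and H3K27ac in both conditions. VPS35, the retromer scaffold, had 50.2 H3K9ac in stromal and 38.2 in astromal cultures. VPS26A had 41.0 in stromal and 28.0 in astromal cultures, and VPS29 had 44.9 and 25.5 in that order. VPS26B, the alternative arm subunit, was the exception, with 18.5 in stromal and 22.9 in astromal cultures. Of 7 HOPS and CORVET genes 3 had H3K9ac in both lists, VPS11 (54.2 stromal, 28.0 astromal), VPS33A (50.2 stromal, 25.5 astromal) and VPS39 (26.4 stromal, 20.4 astromal). VPS18 had 27.7 in the stromal list only. Of 9 ESCRT genes 4 were in both lists, VPS28 of ESCRT-I with 47.6 in stromal and 25.5 in astromal cultures, and VPS4B, an ATPase that takes ESCRT-III apart, with 38.3 in stromal and 28.0 in astromal cultures. Its paralogue VPS4A had 26.4 in the stromal list only. GARP genes divided evenly, with VPS51 and VPS52 in both lists and VPS53 and VPS54 in the stromal list only. The 3 listed VPS13 genes, VPS13B, VPS13C and VPS13D, had 31.7, 29.1 and 26.4 in the stromal list and nothing in the astromal one.

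Sorting nexins without a BAR domain were in both H3K9ac lists in 10 of 15 cases and those with one in 5 of 12, beside 46.8% of all genes. The intervals of the share listed in stromal cultures alone overlapped, from 11.8 to 61.6% without a BAR domain and from 27.7 to 84.8% with one. Nexins of the retromer-linked BAR pairs were unlike one another. SNX5, with 46.2 in stromal and 33.1 in astromal cultures, and SNX6 were among the stronger members, while SNX1 had 25.1 in stromal and 20.4 in astromal cultures and SNX2 had 29.1 in the stromal list only. SNX27, a nexin with a PDZ domain that selects cargo for recycling to the cell surface, had 25.1 in the stromal list, none in the astromal list, and no H3K27ac within 2 kb. SNX3, which recruits retromer to early endosomes, had 46.2 in stromal and 28.0 in astromal cultures.

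Ratios of the strongest peak, stromal over astromal, were centred on the median of all genes, since that median was itself shifted. It was 0.67 on the log2 scale for H3K9ac (5706 genes) and -0.20 for H3K27ac (7964 genes). After centring the members' H3K9ac ratios had a median of 0.04 over 57 genes, beside 0 for all genes by construction, and 32 of the 57 lay above 0, against 49.9% of all genes. By subfamily the medians were 0.06 for 24 RAB GTPases, 0.03 for 14 VPS genes and 0.05 for 15 SNX genes. For a call, the centred difference had to reach 2-fold in either direction with 0 outside its 95% interval. No member was called higher and none lower in H3K9ac, where 0.21% and 0.613% of all genes were. The call depended on the centring: with the median of genes of at least 20 tags in both libraries as the centre, the members' median was 0.34 and 1 member, RAB32, was called higher and 0 lower, against 2.07% and 0.105% of all genes. Without centring 6 were called higher and 0 lower, against 13.4% and 0.0351% of all genes. Past 2-fold without regard to the interval lay 1 member, RAB32 at 1.08 (interval -0.17 to 2.61), and none in the lower direction, against 0.683% and 1.49% of all genes. The strongest astromal peak of a member held 9 tags at the median, so the intervals were wide.

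Among the 25 members with at least 10 tags in both libraries, the highest centred H3K9ac ratios were those of SNX6 (0.48, interval -0.49 to 1.57), SNX13 (0.45, -0.38 to 1.37) and VPS33A (0.31, -0.72 to 1.48), and after them VPS11 (0.28), with VPS28 and RAB24 (0.23 each). The lowest were RAB11A (-0.51, interval -1.51 to 0.56), RAB33B (-0.48, -1.62 to 0.76) and RAB5B (-0.32, -1.29 to 0.74), and after them VPS35 (-0.28) and RAB3A (-0.27), a RAB of regulated secretion. The intervals of all of these genes held 0 and overlapped, so their order does not hold up against counting error. Before centring, 3 members were lower in the stromal library. VPS26B was one of them, with a centred ratio of -0.98 (interval -2.29 to 0.41). The other members of this kind, SNX15 (15.9 stromal, 17.8 astromal) and SNX29 (22.5 stromal, 22.9 astromal), were named after their values were seen.

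**Figure D3:**
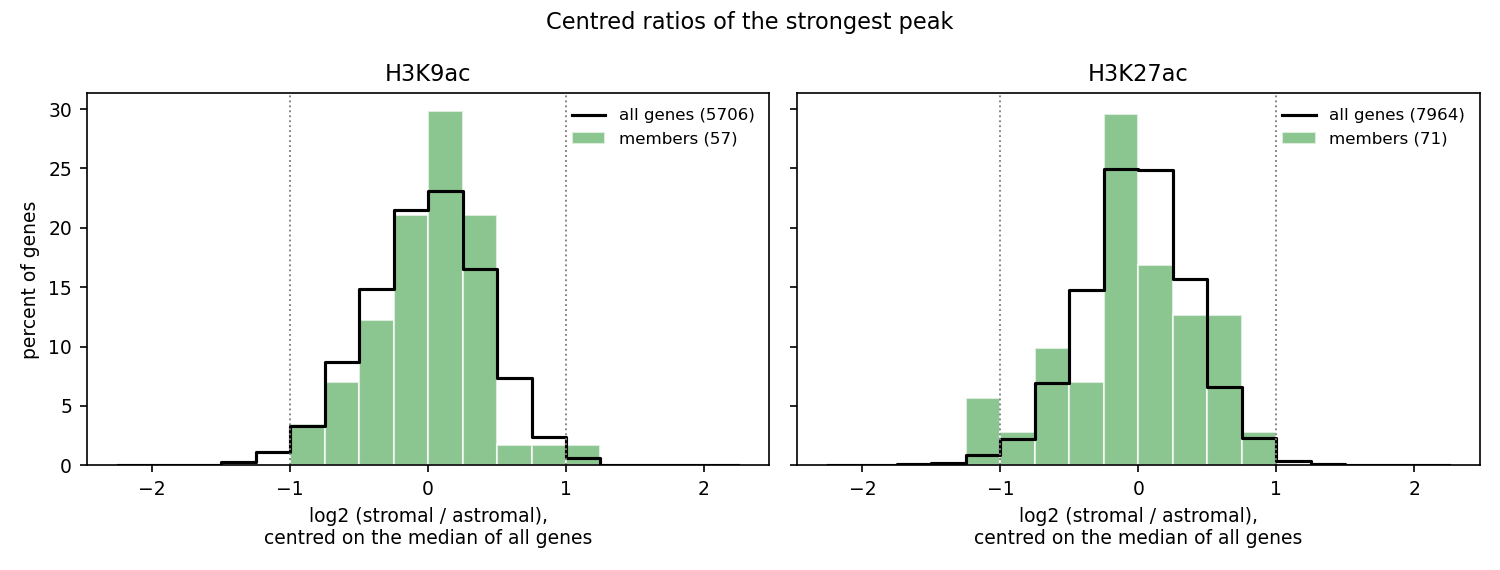
Columns give the percent of members, and the black line the percent of all genes, per bin of the centred log2 ratio of the strongest peak, stromal over astromal, for H3K9ac (left) and H3K27ac (right), and dotted lines mark 2-fold. Member medians are 0.04 and -0.05, and in H3K27ac 4 members lie past 2-fold on the lower side and none on the higher side.

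H3K27ac was more evenly listed than H3K9ac. Of the 115 members, 71 had H3K27ac in both conditions, 8 in stromal cultures only, 9 in astromal cultures only and 27 in neither, against 65.4%, 5.2%, 7.64% and 21.8% of all genes in the same order. VPS genes were without it in 5 of 31 cases, RAB GTPases in 10 of 43 and SNX genes in 9 of 27. The strongest in the stromal list were RAB10, a RAB of polarised exocytosis, at 33.7 in stromal and 26.8 in astromal cultures, VPS35 at 29.7 and 28.2, RAB4B, a recycling RAB, at 27.3 and 28.2, and SNX4, a BAR-domain nexin of recycling and autophagy, at 25.6 and 19.3, each stromal value given before the astromal one. The RAB4B peaks also counted for the readthrough locus RAB4B-EGLN2, which shares its promoter region. In the astromal list RAB4B, SNX3 and VPS35 were highest at 28.2 each, with SNX13 at 27.5. In the authors' deposited values the median fold over input was 18.8 for members' stromal peaks, equal to that of all stromal peaks, and 29.2 for members' astromal peaks, against 25.6 for all astromal peaks.

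H3K27ac in stromal cultures only was found near RAB34, a RAB of ciliogenesis, at 18.0 normalised tags, SNX1 at 14.0, VPS41 at 9.89, RAB29 at 9.31, VPS39 at 8.14, RAB4A and SNX2 at 7.56 each, and RAB3IL1 at 6.40. The SNX1 peak lay 1979 bp from its own H3K9ac peak and 605 bp from one of FAM96A, so it lay nearer to that gene. Likewise the VPS9D1 peak named next lay 640 bp from its own H3K9ac and 8 bp from that of ZNF276. H3K27ac in astromal cultures only was found near VPS53 (11.1), RAB14 (9.66), which acts between the Golgi and endosomes, SNX16, RAB3IP, VPS8 and VPS9D1 (8.92 each), RAB11FIP5 and VPS9D1-AS1 (8.18 each) and VPS16 (6.69). Other than RAB34 and SNX1, all of these values lay below the median of their list, 11.6 in the stromal and 13.4 in the astromal library. How far the sites were shared depended on the overlap asked for. Of 123 stromal H3K27ac peaks, 66.7% (interval 57.6 to 74.9%) overlapped an astromal one, against 58.4% of all stromal peaks, and of 124 astromal peaks 65.3% (56.3 to 73.6%) overlapped a stromal one, against 60.8% of all astromal peaks, when 1 bp sufficed. With at least 50% of both peaks in the overlap the shares were 48.8% of stromal and 47.6% of astromal member peaks, against 44.1% and 46.0% of all peaks.

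The centred H3K27ac ratios had a median of -0.05 over 71 members, and 32 of them lay above 0, against 50% of all genes. Before centring 22 of the 71 were higher in the stromal library, against 29.2% of all genes. No member was called higher, where 0.465% of all genes were, and 2 were called lower, where 0.866% were. Without centring 0 were called higher and 6 lower, against 0.176% and 2.27% of all genes, and with centring on genes of at least 20 tags 0 higher and 1 lower, against 0.578% and 0.703%. Past 2-fold without regard to the interval were 4 members in the lower direction and 0 in the higher, against 1.13% and 0.527% of all genes. SNX6 was called lower, with 6.40 normalised tags in the stromal and 16.4 in the astromal library (11 and 22 tags) and a centred ratio of -1.16 (interval -2.35 to -0.05). Its stromal peak held 11 tags, the FDR tag threshold in the header of that list. At SNX6 the peaks of both marks and both conditions overlapped in hg19, with H3K27ac at chr14:35098970-35099144 (stromal) and chr14:35098996-35099192 (astromal) and H3K9ac at chr14:35098996-35099206 (stromal) and chr14:35098972-35099172 (astromal), in the intron after the start. The SNX6 promoter sequence printed above, with its 5 GC boxes, lies before the RefSeq start of the gene.

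VPS26B was the other member called lower. It had 8.73 in the stromal and 20.1 in the astromal library (15 and 27 tags), with a centred ratio of -1.004 (interval -2.02 to -0.04). The start of NCAPD3, a condensin subunit gene, lies within 1 kb on the opposite strand. The stromal H3K27ac peak of hg19 (chr11:134094029-134094203) lay 923 bp from the H3K9ac peak of VPS26B and 51 bp from an H3K9ac peak of NCAPD3 by the nearest centre of either list. The astromal peak (chr11:134094154-134094350) lay 787 bp from that of VPS26B and 63 bp from that of NCAPD3. The peaks behind the call were thus nearer to NCAPD3 than to VPS26B by H3K9ac, and NCAPD3 had 38.3 H3K9ac in stromal and 25.5 in astromal cultures (centred -0.08). The VPS26B value is just past 2-fold, and the call was lost with H3K9ac anchors within 1 kb of the start (-0.99) and with centring on genes of at least 20 tags (-0.98), whereas SNX6 was still called under both. A protein-coding start on the other strand within 1 kb was found for 12 of the 87 members with a promoter entry. Of the strongest H3K27ac peaks per member, 5 of 79 stromal and 7 of 80 astromal ones were nearer to an H3K9ac peak of a gene outside the set.

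RAB8A and RAB6A were past 2-fold but not called. RAB8A had 6.40 H3K27ac in the stromal and 14.9 in the astromal library, a centred ratio of -1.02 (interval -2.23 to 0.11), and RAB6A had 6.98 and 16.4 in that order, a ratio of -1.03 (-2.18 to 0.05). The stromal peaks of RAB8A and RAB6A held 11 and 12 tags, at and just above the FDR tag threshold of 11 in that list. RAB43, a RAB of the ER and Golgi, was just under 2-fold with 10.5 in stromal and 23.0 in astromal cultures, and its interval left out 0 (-0.93, interval -1.86 to -0.06). The highest H3K27ac ratios were those of VPS33A, a Sec1/Munc18 protein of HOPS, at 0.81 (23.9 stromal, 15.6 astromal; interval 0.02 to 1.64), VPS4B at 0.80 (18.0 stromal, 11.9 astromal) and RAB33B, a Golgi RAB linked to autophagy, at 0.73 (14.0 stromal, 9.66 astromal). For VPS33A the strongest peaks of the conditions lay 513 bp apart, and the strongest overlapping pair gave -0.24, so its ratio compares different sites. The strongest peaks of VPS4B lay 588 bp apart and those of RAB33B 522 bp apart, so their ratios do the same. At RAB33B the overlapping peaks had 8.14 in stromal and 8.92 in astromal cultures. RAB30, RAB31 and SNX4 followed at 0.61 each, and the RAB30 peaks also count for its antisense locus RAB30-AS1.

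The ratios of the 2 marks showed no common direction at these genes. Over the 47 members with both marks in both conditions the centred ratios of the marks had a Pearson correlation of -0.22 and a Spearman correlation of -0.32, against -0.03 by either measure over 4844 genes. The points share libraries, depth and neighbouring sites, so these are descriptions. There were 18 members above the median of all genes in H3K9ac and below it in H3K27ac, 9 above in both, 10 below in both and 10 below in H3K9ac and above in H3K27ac. In the same order these were 38.3%, 19.1%, 21.3% and 21.3% of members, against 27.1%, 25.2%, 24.0% and 23.4% of all genes. At least 0.4 above in H3K9ac and 0.4 below in H3K27ac lay 4 members (8.51%), against 153 genes in all (3.16%). SNX6, RAB8A and RAB32 were far apart in this way, with 0.48, 0.74 and 1.08 in H3K9ac and -1.16, -1.02 and -0.74 in H3K27ac. The H3K9ac intervals of all of these genes held 0, as did the H3K27ac intervals of RAB8A and RAB32. RAB33B was below in H3K9ac and above in H3K27ac, at -0.48 and 0.73. Its strongest peaks in the conditions lay 896 bp apart in H3K9ac and 522 bp apart in H3K27ac, so both ratios compare different sites. SNX4 was high in both (0.83 and 0.61) and VPS26B low in both (-0.98 and -1.004). The H3K9ac intervals of SNX4 (-0.36 to 2.23) and VPS26B (-2.29 to 0.41) held 0. So did the H3K27ac interval of SNX4 (-0.13 to 1.36). The VPS26B H3K27ac peaks lay nearer to H3K9ac of NCAPD3, so the VPS26B ratios of the marks compare different sites.

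**Figure D4:**
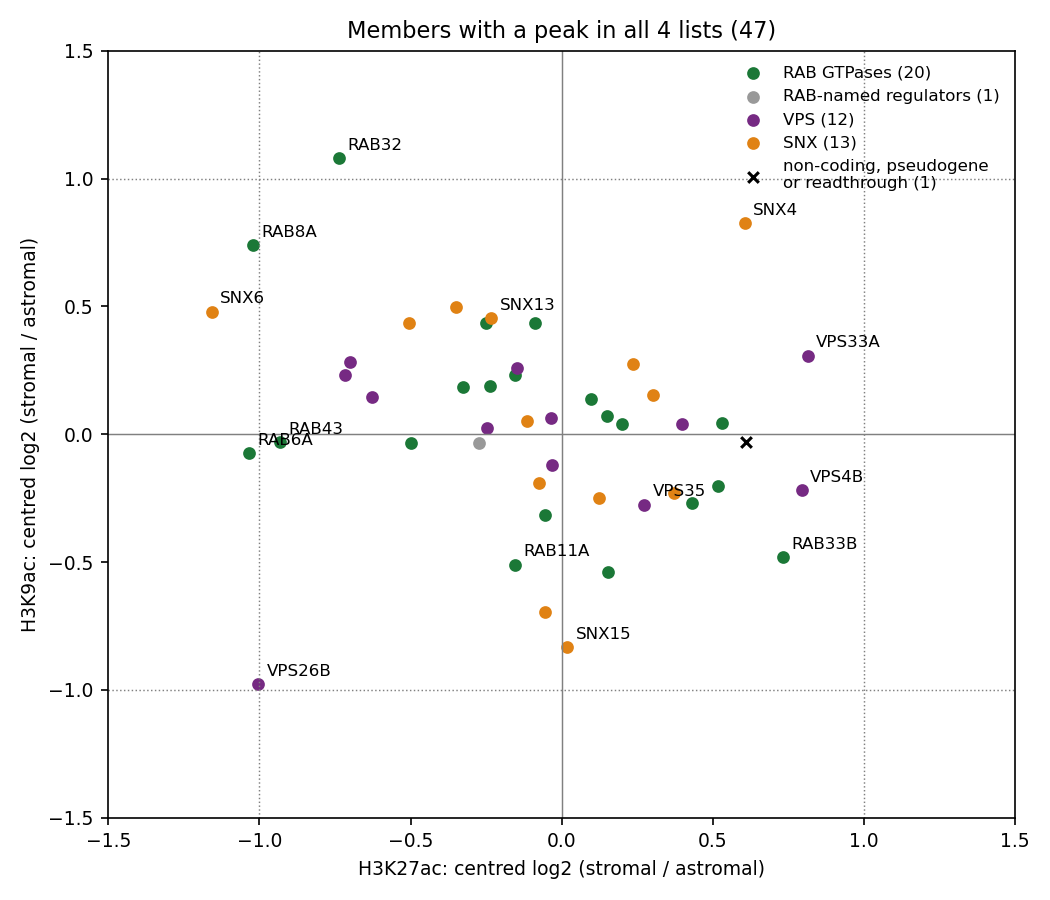
Each point is 1 of the 47 members with peaks in all 4 lists, placed by its centred log2 ratio, stromal over astromal, in H3K27ac (horizontal) and H3K9ac (vertical), coloured by subfamily, and dotted lines mark 2-fold. SNX6 and RAB8A lie at the upper left, VPS26B at the lower left, and no member lies past 2-fold in both marks.

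Levels of the marks were also only loosely tied. Across members with both marks in the stromal lists the Spearman correlation of levels was 0.06 (79 genes), against 0.43 over all genes, while in the astromal lists it was 0.45 (51 members) against 0.39. The median stromal H3K9ac level was 38.3 where H3K27ac lay within 2 kb and 25.1 where it did not, with 34.3 and 21.1 over all genes. Stromal H3K9ac peaks of members had stromal H3K27ac nearby in 65.4% of cases (123 of 188, interval 58.2 to 72.2%), against 69.5% of all peaks, and astromal ones in 89.7% (61 of 68, 79.9 to 95.8%), against 89.1%. Of the 58 members with H3K9ac in stromal cultures only, 29 (50%) had H3K27ac in the astromal list, against 57.2% of all such genes, although no astromal H3K9ac peak was listed. Among these were RAB5A (12.8 stromal, 15.6 astromal), VPS45 (20.4 stromal, 24.5 astromal) and VPS4A (8.73 stromal, 11.1 astromal). Another 23 had H3K27ac in neither list, SNX27 among them. The opposite case, H3K9ac in both lists without H3K27ac in either, was found at 4 members, SNX19, RAB27B, RAB12 and RAB36, with 41.0, 37.0, 34.3 and 17.2 H3K9ac in stromal and 25.5, 20.4, 17.8 and 15.3 in astromal cultures.

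H3K9ac lay close to the annotated starts. Within 1 kb lay 169 of 188 stromal peaks (89.9%) and 66 of 68 astromal peaks (97.1%), against 76.5% and 86.1% of all peaks. Peaks on both sides of the start were found at 50 of 111 genes in the stromal list (45.0%, all genes 34.0%) and at 6 of 56 in the astromal list (10.7%, all genes 12.1%). RAB10 showed both sides in both conditions, with 50.2 upstream and 43.6 downstream in stromal cultures and 30.6 upstream and 22.9 downstream in astromal cultures. By the annotation deposited with the peaks, 80 stromal peaks lay at promoters, 66 in introns, 18 in exons, 8 in a 5′ UTR and 13 between genes. The strongest stromal peak was downstream of the start in 73.9% of members and 67.8% of all genes. Of the stromal H3K9ac peaks, 27.7% (interval 21.4 to 34.6%) overlapped an astromal one, and of the astromal peaks 76.5% (64.6 to 85.9%) overlapped a stromal one, against 26.6% and 75.8% of all peaks. The strongest peaks of a member in the conditions were a median of 118 bp apart. At 12 of 57 members they were more than 500 bp apart, up to 53707 bp, so the H3K9ac ratios of those members compare different sites.

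**Figure D5:**
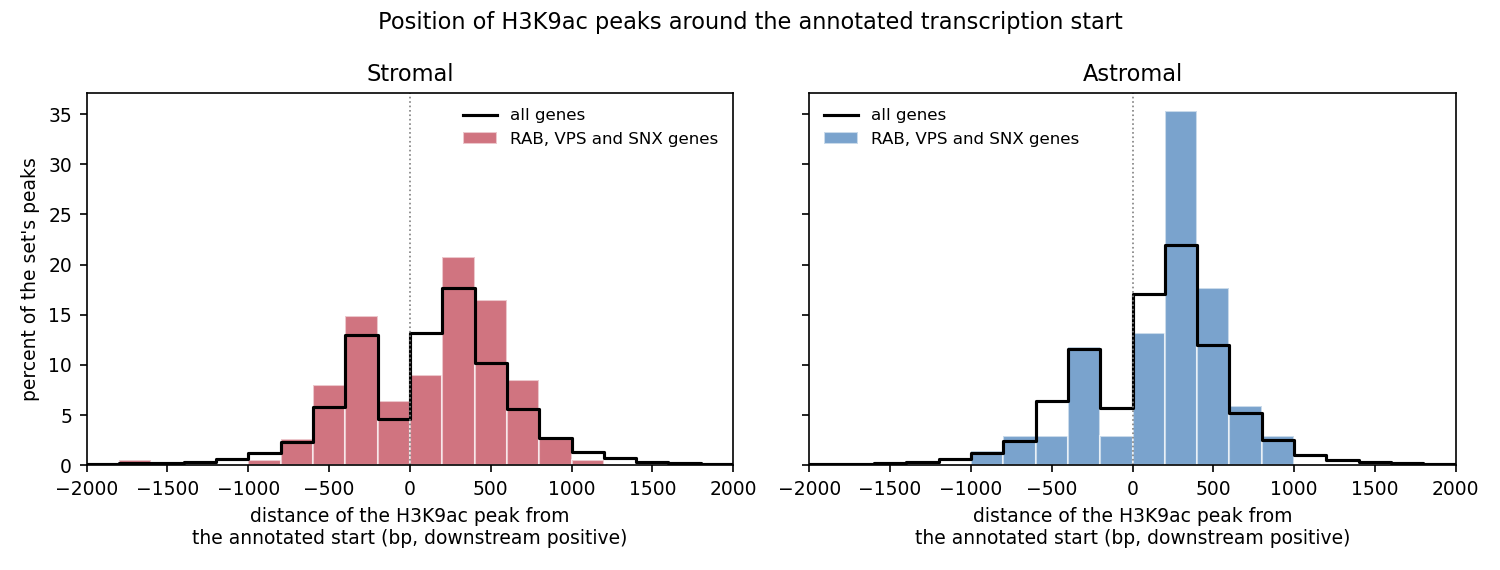
Columns give the percent of members' H3K9ac peaks, and the black line the percent of all H3K9ac peaks, per 200 bp of distance from the annotated start, in the stromal (left) and astromal (right) list. Most peaks lie within 1000 bp of the start. Of the members' peaks there, 63.9% in the stromal and 77.3% in the astromal list lie downstream, against 64.7% and 68.3% for all genes.

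Peaks beyond 5 kb were few, 17 stromal and 2 astromal, and the genes named here were chosen after their positions were seen. RAB31, a RAB of early endosomes and the trans-Golgi network, had 5 stromal H3K9ac peaks and no astromal one. Its strongest, 39.6 normalised tags, lay in an intron 34.4 kb downstream of the start (hg19 chr18:9742539-9742749), above the 37.0 at 0.28 kb from the start, where no H3K27ac lay within 2 kb in either list. At that intronic site the stromal list had H3K27ac peaks of 19.8 each at 2 positions and the astromal list had none within 2 kb. Another site 24.4 kb upstream had 18.0 H3K27ac in stromal and 14.9 in astromal cultures, so the RAB31 ratio of 0.61 sets the intronic site against this one, 58284 bp away. RAB27B, a RAB of exosome secretion, had 37.0 H3K9ac at its start in stromal cultures and no astromal peak there. Its only astromal peak, 20.4, lay 53.6 kb upstream in intergenic sequence, where the stromal list had peaks of 17.2 and 23.8. RAB2A had an intronic astromal peak of 20.4 at 47.4 kb with no stromal peak listed there. RAB35 was also the nearest gene to weak stromal peaks of 21.1 and 11.9, 30.0 and 29.4 kb downstream of its start. The deposited annotation places them in an intron of a transcript other than those it names at the RAB35 start. They were thus not shown to lie within RAB35.

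Other genes of the pathway, which the naming pattern misses, were counted in the same way. Of 82 such genes, from RAB prenylation and exchange factors to ESCRT-III, the WASH complex and endosomal SNAREs, 71 had H3K9ac, 42 in both lists, 29 in the stromal list only and none in the astromal list only. Both lists held 59.2% of the 71 and the stromal list alone 40.8%, against 46.8% and 52.2% of all genes. Only 0.935% of all genes were in the astromal list alone. The centred medians of these pathway genes were -0.05 in H3K9ac (42 genes) and -0.01 in H3K27ac (50 genes). In H3K9ac 0 were called higher and 1 was called lower, FAM21A of the WASH complex, with 14.5 in stromal and 25.5 in astromal cultures (centred -1.48). Over all genes 0.21% were called higher and 0.613% lower. FAM21A has near-identical copies in the genome, so its reads may be split among them, and whether this bears on the ratio was not tested. In H3K27ac 0 of the 50 were called in either direction, against 0.465% higher and 0.866% lower over all genes. Of 15 ESCRT and PI3-kinase partners with H3K9ac 12 had it in both lists, and of 12 RAB exchange factors with H3K9ac 6 did. Among all genes 46.8% did.

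Adding up all peaks of a gene in place of the strongest made more calls. Such sums also depend on how many peaks were listed in each library, and the cause of the added calls was not tested. In H3K9ac 2 members, RAB32 and SNX4, were then called higher and 1, SNX5, lower, against 5.96% and 3.56% of all genes. In H3K27ac RAB31 was called higher and 8 members lower, against 5.47% and 6.22% of all genes, and SNX6 and VPS26B were among the 8.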

How the data were processed

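Chromatin immunoprecipitation sequencing of H3K9ac and H3K27ac gave 1 library per mark and condition. The 4 input libraries were not analysed here on their own. CASAVA 1.8.2, Bowtie and HOMER on hg19 are named in the submitters' processing notes. The deposited signal is tags per peak normalised to 10000000 tags. The H3K27ac lists also hold the authors' fold (a ratio) over input and over the surrounding 10 kb, each at least 4; per the file headers, the FDR was set to 0.001. The sources used here do not state the thresholds behind the H3K9ac lists, and those lists carry no depth, so tag counts were recovered from the even steps of the values (within 0.1 tag of a whole number).

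The members and lists were chosen with earlier results of these data known. A gene's level is its strongest peak. Log2 ratios, stromal over astromal, were centred on the median of all genes with a peak in both lists. A gene was called at 2-fold or more with a 95% exact (Clopper-Pearson) interval of the tag ratio that leaves out 0. Intervals cover counting error only. The ratios and calls were tested on simulated counts with known fold changes, which did not measure the coverage of the intervals. Named genes were, per mark, the 8 strongest members of the stromal list only, every member of the astromal list only, the 5 strongest of each list, the 5 highest and 5 lowest centred ratios with at least 10 tags in both libraries, every called member, members with H3K9ac in both lists and no H3K27ac, and 15 fixed genes such as RAB5A, RAB7A and VPS35. Others were named after their values were seen, as the text says or as examples of a group. Roles were assigned by hand. Promoters came from RefSeq (GRCh38.p14), matched by gene ID. The alternatives changed the level, the centring, the floor, the overlap and the distance between marks, and pairing the strongest overlapping peaks was added after seeing the data. Python 3.11.15, numpy 2.4.6, pandas 2.3.3, scipy 1.17.1 and matplotlib 3.10.9 were used.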

Additional observations from a re-analysis of the deposited data

How the results depend on the processing

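No paired analysis was possible because each group is 1 library, and for the same reason no replicate could be left out. The H3K9ac libraries differ in depth and in their weakest listed peaks, and the part of this in list membership was not tested. The members with H3K9ac in both lists fell to 25 with a floor of 25 normalised tags and to 33 in lists without the weakest 25% of their peaks, where 1 was listed in the astromal condition only. With a floor of 10, 4 members had H3K27ac in stromal and 19 in astromal cultures only. The stromal H3K27ac list has the lower median, 11.6 against 13.4 normalised tags, so this floor falls unequally on the lists. Shares of all genes with these floors and stricter lists are not given here, so the counts do not single out members. The H3K9ac median was 0.71 without centring and 0.34 when centred on genes with at least 20 tags. The H3K27ac median was -0.25 without centring. H3K9ac calls were 2 higher and 1 lower with summed peaks, 6 higher without centring (RAB32, RAB8A, SNX13, SNX4, SNX6 and SNX8; 13.4% of all genes) and 1 higher (RAB32; 2.07% of all genes) with centring on genes of at least 20 tags. H3K27ac calls were 1 higher and 8 lower with summed peaks, 6 lower without centring (2.27% of all genes), 1 lower (SNX6) with centring on genes of at least 20 tags and with anchors within 1 kb of the start, and 0 lower with the floor and in the stricter lists, where fewer genes were left. VPS26B stood at -0.99 with anchors within 1 kb and at -0.98 with the other centring. Overlap shares, with centres within 500 bp and then with a mutual overlap of at least 50%, were 35.1% and 16.5% (H3K9ac stromal), 95.6% and 45.6% (H3K9ac astromal), 81.3% and 48.8% (H3K27ac stromal) and 78.2% and 47.6% (H3K27ac astromal), and the H3K9ac stromal share was 20.8% in the stricter lists. Marks overlapping by at least 1 bp gave 42.0% (stromal) and 63.2% (astromal). No called value changed sign. Uncalled ratios near 0 did: the members' median in H3K9ac was -0.07 with summed peaks, and in H3K27ac 0.10 with the floor, 0.02 in the stricter lists and 0.01 with summed peaks, and 36 of 368 values of named genes changed sign, 14 of them without centring and 12 with summed peaks. Of the values of named genes, 355 kept their side of the threshold within the counting interval, 10 passed the threshold, 2 lost it and 1 left the interval, VPS33A in H3K27ac, at -0.24 with the overlapping pair against 0.81. The causes were not tested.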
